A study of Mus musculus and Homo sapiens with 34 samples.

Results

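Interferon-stimulated effector genes were followed in spheroids of 3 colorectal carcinoma lines grown with or without SIS ECM, a decellularised extracellular matrix. The group holds 34 gene symbols of interferon-stimulated genes, many with a known antiviral role, matched by symbol and ignoring case. Of these, 33 were found in the mouse table (of 55450 genes) and 32 in the human table (of 58870). Oasl1 and Oasl2 were searched in mouse alone, OASL was found in human alone, and all 33 and 32 found passed the filter on low counts. The 34 libraries fell into 6 groups: CT26 cells alone and CT26 with SIS ECM (6 libraries each), MC38 cells alone and MC38 with SIS ECM (5 each), and HT29 cells alone and HT29 with SIS ECM (6 each). CT26 and MC38 are mouse lines and HT29 is a human line, all named as colorectal carcinoma. Every group shared the medium (RPMI with serum), the ultra-low attachment U-bottom plates and 7 days of culture, and 10 spheroids were pooled in each tube. Each model is a single cell line without host tissue. Nothing in the labels tells if the libraries of 1 group are separate cultures, and p-values therefore rest on a spread that could be technical alone.

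Interferons bind receptors on the cell surface, and the receptors switch on transcription factors that bind an element named ISRE in the promoters of interferon-stimulated genes. Many products of these genes act against viruses: some bind foreign RNA, some degrade it, some block entry or exit at membranes, and some tag proteins. Others have other roles, which are given with each gene below. In tumours this programme is known both as a sign of interferon in the surroundings and as a state that cells can hold without added interferon.

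Library totals ran from about 15826200 to 24196100 estimated counts in mouse and from about 25515200 to 37001500 in HT29. The share of counts from mitochondrially encoded genes was 3.72 to 5.01% in CT26 libraries numbered 1 to 3 and 7.66 to 8.59% in those numbered 4 to 6. Epcam, a defining epithelial marker, was at 0 in every CT26 and MC38 library. Of 8 epithelial markers, 7 stayed under 10 counts in every MC38 library and 5 in every CT26 library, whereas all 8 reached that level in HT29. Of 9 leukocyte markers, Cd68 in CT26, and Cd68 and Lyz2 in MC38, reached 10 counts, and Cd3e was at 0 in both lines. Levels are CPM, counts set to a common library total with TMM factors, adjusted p-values come from the quasi-likelihood test of edgeR, adjusted by Benjamini and Hochberg's method across every gene of a fit, and genes below 0.05 are said to have risen or fallen. In whole spheroids, fewer cells with a transcript and less of it per cell cannot be told apart.

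With SIS ECM, 24 of the 33 effector genes rose in CT26 (6.15% of the 12269 genes tested rose) and Ifit2 fell (3.10% of genes tested fell). The median log2 fold change of the 33 genes was 0.96, against 0.0082 over all genes tested. In HT29, 30 of 32 rose (7.75% of 15207 genes tested rose) and none fell by edgeR (5.79% of genes tested fell), DESeq2 or limma-voom, nor was any lower at an unadjusted p under 0.05. The median in HT29 was 0.49, against -0.0046 over all genes. In MC38, 3 of 33 rose (3.82% of 13146 genes tested rose) and 2 fell (5.36% of genes tested fell), with a median of 0.049 against 0.0062 over all genes. Those 5 MC38 genes were Oasl2, Rtp4 and Parp14, which rose, and Isg20 and Ifitm2, which fell. With a term for the library number ranges (1 to 3 and 4 to 6) 7 MC38 genes rose (12.2% of genes tested rose in that fit), Ifi44, Xaf1, Oas2 and Herc6 in addition. The same term in CT26 gave 30 of 33 genes that rose (15.2% of genes tested) and 1 that fell (13.7% of genes tested). Leaving out library 4 of MC38 cells alone added Ifi44, Mx2 and Xaf1, for 6 that rose. Among the 31 genes measured in all 3 lines, 22 rose in both CT26 and HT29, and PARP14 and RTP4 rose in all 3. The share of all matched genes that rose in the same lines is not given here, so these counts have no background beside them.

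**Figure D1:**
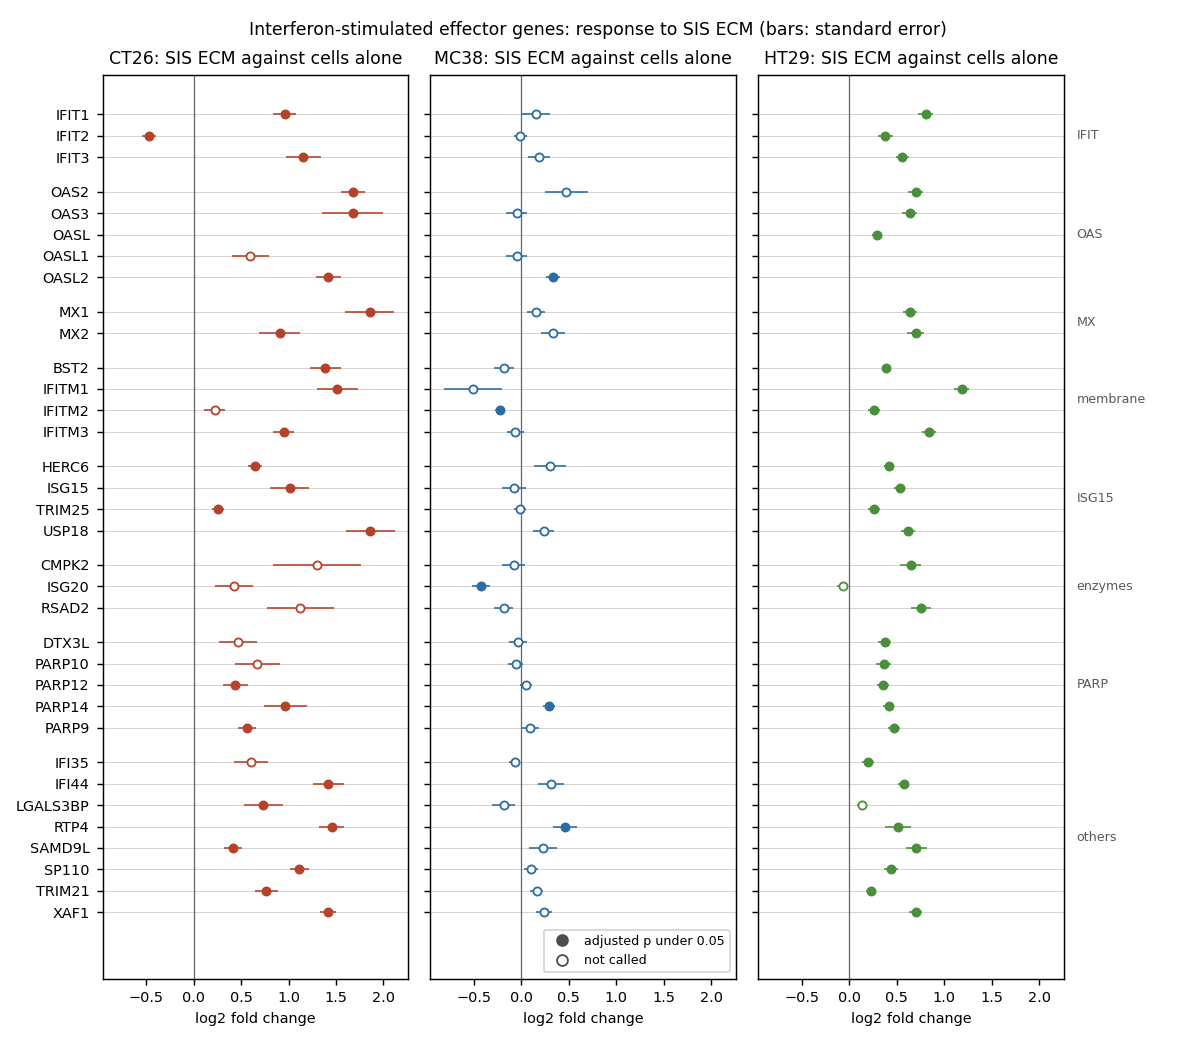
Log2 fold change of each effector gene with SIS ECM against cells alone (x axis) in CT26, MC38 and HT29, with genes in rows grouped by role. Filled points passed an adjusted p of 0.05 and bars are standard errors. Most CT26 and HT29 points lie to the right of 0, with Ifit2 in CT26 at -0.47, and the MC38 points lie between -0.51 and 0.47.

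The mean log2 CPM of the group in each library, set to 0 at the mean of the cells-alone libraries of the line, gave the same picture library by library. In CT26 the cells-alone libraries lay between -0.23 and 0.20 (median 0.0042) and the SIS ECM libraries between 0.70 and 1.30 (median 0.86). In MC38 cells alone gave 0.025, -0.18, -0.028, 0.095 and 0.086, and SIS ECM gave 0.019, 0.12, 0.032, 0.026 and 0.015. In HT29 the ranges were -0.12 to 0.10 (median -0.016) for cells alone and 0.36 to 0.64 (median 0.50) for SIS ECM. The cultures did not overlap in CT26 or HT29 and overlapped in MC38. The lowest HT29 SIS ECM scores, 0.37 and 0.36, belonged to libraries 1 and 4, whose mitochondrial shares of 6.60 and 6.89% were above the 5.33 to 5.80% of the other SIS ECM libraries, and the part of that share in the score was not tested.

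**Figure D2:**
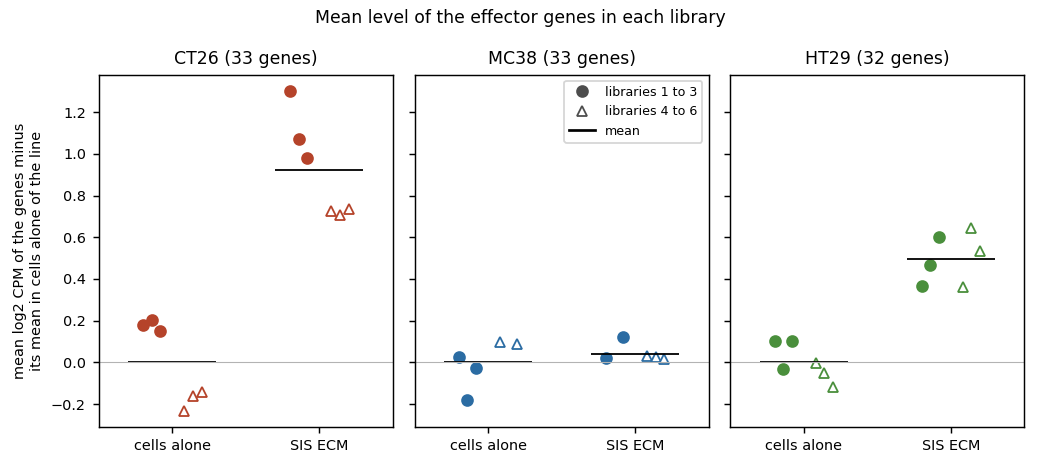
Mean log2 CPM of the effector genes per library, relative to the cells-alone mean of the line (y axis), by culture. Circles are libraries numbered 1 to 3, triangles those numbered 4 to 6, and lines are means. The CT26 and HT29 cultures are apart (0.70 to 1.30 and 0.36 to 0.64 with SIS ECM), and the MC38 cultures overlap.

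IFIT1 binds viral RNA that lacks the cap marks of the host, and IFIT2 and IFIT3 belong to the same family. In CT26 Ifit1 rose from 5.06 to 7.71 CPM (median 6.81) in cells alone to 11.1 to 14.8 CPM (median 12.7) with SIS ECM. Ifit3 rose from 1.54 to 3.05 (median 2.77) to 4.42 to 7.75 (median 5.24). Their log2 fold changes were 0.96 ± 0.12 (SE; adjusted p = 0.000171, edgeR) and 1.15 ± 0.18 (adjusted p = 0.00118, edgeR). Ifit2, which lies beside them on chromosome 19, fell from 30.6 to 38.0 CPM (median 35.1) to 22.2 to 26.3 CPM (median 24.7). Every Ifit2 library with SIS ECM was below every library of cells alone, and the log2 fold change was -0.47 ± 0.07 (adjusted p = 0.00105, edgeR). In HT29 IFIT2 went the other way, from 45.0 to 54.3 (median 50.0) to 51.9 to 74.4 CPM (median 65.8), a log2 fold change of 0.38 ± 0.08 (adjusted p = 0.00463, edgeR). There 5 of the 6 SIS ECM libraries exceeded every library of cells alone. HT29 IFIT1 rose from 65.5 to 81.9 (median 76.9) to 110.8 to 152.5 CPM (median 132.2), a log2 fold change of 0.80 ± 0.08 (adjusted p = 1.78e-06, edgeR), and IFIT3 rose by 0.56 ± 0.07 (log2). In MC38 no IFIT gene passed by edgeR, DESeq2 or limma-voom, and none was under an unadjusted 0.05 by edgeR: the log2 values were 0.15 ± 0.15 for Ifit1, 0.19 ± 0.12 for Ifit3 and -0.01 ± 0.07 for Ifit2. MC38 Ifit2 was 66.8, 63.2, 70.8, 76.3 and 74.2 CPM in cells alone and 74.2, 73.7, 68.4, 63.0 and 65.4 CPM with SIS ECM, with overlapping ranges.

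The promoters of the 3 IFIT genes are shown because the genes are neighbours that did not move together in CT26. Each is 300 bases of RefSeq on GRCm38.p6, from 250 bases before the start, read 5′ to 3′ on the gene's strand, and capitals mark matches on either strand to the ISRE core, which is GAAA, any 2 bases and GAAA again. Ifit1 lies at chr19:34640639-34640938, Ifit3 at chr19:34583279-34583578 and Ifit2 at chr19:34550444-34550743, all on the plus strand.
Ifit1: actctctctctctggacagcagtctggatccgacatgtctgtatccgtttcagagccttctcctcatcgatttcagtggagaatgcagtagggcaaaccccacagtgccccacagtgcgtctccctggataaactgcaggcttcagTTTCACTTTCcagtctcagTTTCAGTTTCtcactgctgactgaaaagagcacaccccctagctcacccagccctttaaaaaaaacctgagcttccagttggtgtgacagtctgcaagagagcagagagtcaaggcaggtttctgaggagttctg
Ifit3: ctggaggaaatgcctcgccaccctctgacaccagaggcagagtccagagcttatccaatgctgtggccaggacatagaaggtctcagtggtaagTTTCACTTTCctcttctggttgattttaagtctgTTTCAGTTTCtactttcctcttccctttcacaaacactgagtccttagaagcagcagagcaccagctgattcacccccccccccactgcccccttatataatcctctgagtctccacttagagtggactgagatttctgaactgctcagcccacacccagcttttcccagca
Ifit2: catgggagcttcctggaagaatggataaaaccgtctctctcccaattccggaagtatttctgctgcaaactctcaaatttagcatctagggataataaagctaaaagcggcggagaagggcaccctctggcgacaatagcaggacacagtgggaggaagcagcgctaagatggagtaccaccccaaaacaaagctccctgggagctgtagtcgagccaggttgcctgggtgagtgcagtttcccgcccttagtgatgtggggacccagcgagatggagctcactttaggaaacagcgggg
The cores began 104 and 85 bases before the start in Ifit1 and 156 and 122 bases before it in Ifit3. Neither of the 2 Ifit2 windows in the table held these letters, and 1 of them held the GAS core TTCNNNGAA, which says only what these windows contain. Ifit3 had non-whole counts in all 22 mouse libraries and Ifit1 in 14, which can mean reads shared with similar genes, so both are uncertain; Ifit2 had whole counts in all 22.

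**Figure D3:**
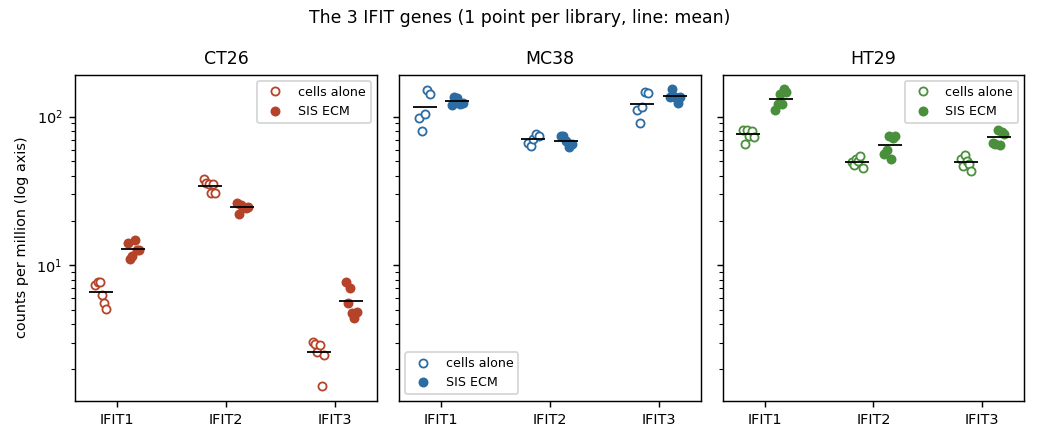
CPM (log axis) of IFIT1, IFIT2 and IFIT3 per library in the 3 lines; open points are cells alone, filled points SIS ECM, and lines are means. In CT26 Ifit2 is lower with SIS ECM (22.2 to 26.3 against 30.6 to 38.0 CPM) while Ifit1 and Ifit3 are higher.

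OAS2 and OAS3 sense double-stranded RNA and make short oligoadenylates that activate RNase L. OASL, Oasl1 and Oasl2 are listed beside them as OAS-like genes. In CT26 Oas2 rose from 4.93 to 7.85 CPM (median 6.13) to 17.3 to 25.1 CPM (median 20.0), 3.20-fold (log2 1.68 ± 0.13, adjusted p = 1.7e-06, edgeR). Oas3 rose from 1.56 to 4.48 (median 3.37) to 5.41 to 17.8 CPM (median 9.05), 3.19-fold (log2 1.67 ± 0.32, adjusted p = 0.00443, edgeR). Neither gene overlapped between cultures. Oasl2 rose by 1.42 ± 0.13 (log2) and Oasl1 did not pass (0.60 ± 0.20, adjusted p = 0.0757, edgeR; 0.0280 with the replicate block). In HT29 OAS2, OAS3 and OASL rose by 0.70 ± 0.08, 0.63 ± 0.08 and 0.29 ± 0.05 (log2). In MC38 Oasl2 rose, from 140.8, 119.3, 136, 148 and 140.3 CPM to 154, 163, 179, 178 and 177 CPM (log2 0.33 ± 0.07, adjusted p = 0.0156, edgeR), without overlap. MC38 Oas2 was 37.7, 29.6, 32.3, 52.1 and 43.8 CPM in cells alone and 31.5, 36.2, 63.0, 68.1 and 69.0 CPM with SIS ECM. The 3 high SIS ECM libraries were numbers 4 to 6 and the cultures overlapped (log2 0.47 ± 0.23, adjusted p = 0.214, edgeR). The promoter of Oas3, the CT26 gene with the largest change among those in the promoter table, lies at chr5:120777610-120777909 on the minus strand and held 1 ISRE core, in capitals, 75 bases before the start.
Oas3: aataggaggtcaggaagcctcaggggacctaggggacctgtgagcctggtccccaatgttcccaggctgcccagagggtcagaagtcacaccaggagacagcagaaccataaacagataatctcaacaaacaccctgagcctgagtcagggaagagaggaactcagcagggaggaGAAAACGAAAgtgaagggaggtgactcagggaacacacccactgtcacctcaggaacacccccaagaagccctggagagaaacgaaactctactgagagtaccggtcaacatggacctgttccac

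MX1 and MX2 are dynamin-like GTPases that trap viral particles. Mx1 in CT26 rose from 0.238 to 0.643 CPM (median 0.378) to 1.28 to 2.00 CPM (median 1.39), 3.61-fold (log2 1.85 ± 0.26, adjusted p = 0.000363, edgeR). These levels rest on 4 to 12 counts per library in cells alone and 20 to 40 with SIS ECM. Mx2, its neighbour on chromosome 16, rose by 0.91 ± 0.21 (log2) in CT26. In HT29 MX1 and MX2 rose by 0.64 ± 0.07 and 0.70 ± 0.09 (log2). MC38 Mx2 was 7.74, 5.66, 7.42, 9.81 and 7.68 CPM in cells alone and 9.25, 9.54, 8.83, 10.3 and 9.93 CPM with SIS ECM, overlapping through library 4 of cells alone (log2 0.34 ± 0.13, adjusted p = 0.113, edgeR). MC38 Mx1 did not pass either (0.15 ± 0.10).

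The IFITM proteins hinder viral fusion with membranes, and BST2 (tetherin) holds budding particles on the cell. IFITM1 had the largest change in HT29, from 15.6 to 24.8 CPM (median 19.6) to 41.2 to 49.4 CPM (median 46.3), 2.27-fold (log2 1.18 ± 0.08, adjusted p = 5.42e-08, edgeR). IFITM3 in HT29 rose from 30.7 to 47.1 (median 39.1) to 63.9 to 75.9 CPM (median 69.5), a log2 fold change of 0.84 ± 0.08 (adjusted p = 1.25e-06, edgeR). Both were free of overlap, but both had non-whole counts in all 12 HT29 libraries, so reads may be shared among IFITM copies. In CT26 Ifitm1, Bst2 and Ifitm3 rose by 1.51 ± 0.21, 1.39 ± 0.16 and 0.95 ± 0.11 (log2). CT26 Ifitm2 was 55.6 to 69.4 CPM (median 60.2) in cells alone and 58.9 to 93.8 (median 63.4) with SIS ECM. Only SIS ECM libraries 1 and 2 exceeded all cells-alone libraries for Ifitm2, and it did not pass (log2 0.22 ± 0.11, adjusted p = 0.243, edgeR). In MC38 all 4 membrane genes had values below 0, and Ifitm2 fell. It was 148, 138, 132, 141 and 155 CPM in cells alone and 125, 124, 119.7, 114 and 119.9 CPM with SIS ECM (log2 -0.23 ± 0.06, adjusted p = 0.0256, edgeR). No library overlapped, but the call was lost in 5 of 10 omissions of 1 library (cells alone 1 or 5, SIS ECM 4, 5 or 6; adjusted p up to 0.0666, edgeR). HT29 IFITM2 rose, from 25.5 to 31.0 (median 29.6) to 30.9 to 39.6 CPM (median 33.4; log2 0.26 ± 0.06, adjusted p = 0.0127, edgeR), so IFIT2 and IFITM2 were the genes that rose in 1 line and fell in another. MC38 Ifitm1 had the lowest fold change of that line, at 1.11, 0.545, 0.592, 0.645 and 1.14 CPM in cells alone and 0.421, 0.734, 0.732, 0.546 and 0.339 CPM with SIS ECM. It overlapped and rests on 7 to 29 counts per library (log2 -0.51 ± 0.30, adjusted p = 0.307, edgeR).

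ISG15 is a ubiquitin-like tag, HERC6 is its ligase in mouse, USP18 removes it and dampens the interferon receptor, and TRIM25 is a ubiquitin ligase that acts on the sensor RIG-I. Usp18 had the largest change in CT26, from 2.20 to 6.23 CPM (median 3.71) to 8.90 to 20.7 CPM (median 13.5), 3.63-fold (log2 1.86 ± 0.26, adjusted p = 0.000343, edgeR), without overlap. All 4 genes rose in CT26, with log2 values of 1.01 ± 0.20 for Isg15, 0.65 ± 0.07 for Herc6 and 0.26 ± 0.06 for Trim25. Trim25 lost its call in 5 of 12 omissions of 1 library (cells alone 2, 4, 5 or 6, SIS ECM 1), with adjusted p up to 0.0671 (edgeR). All 4 rose in HT29 as well, USP18 by 0.62 ± 0.08, ISG15 by 0.53 ± 0.06, HERC6 by 0.41 ± 0.05 and TRIM25 by 0.26 ± 0.07 (log2). In MC38 none passed by edgeR (0 of 4 under an unadjusted 0.05), DESeq2 or limma-voom, with log2 values from -0.081 to 0.30. USP18 had non-whole counts in all 12 HT29 libraries, and Herc6 in 20 of 22 mouse libraries.

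RSAD2 (viperin) makes a nucleotide that ends viral RNA chains, CMPK2 is the nucleotide kinase encoded next to it, and ISG20 is an exonuclease. In HT29 RSAD2 rose from 16.8 to 22.1 CPM (median 20.9) to 25.3 to 40.8 CPM (median 34.9), without overlap (log2 0.76 ± 0.11, adjusted p = 0.00011, edgeR), and CMPK2 rose by 0.64 ± 0.11. In CT26 both had large values that did not pass, 1.12 ± 0.35 (adjusted p = 0.0589, edgeR) and 1.30 ± 0.47 (adjusted p = 0.0986, edgeR), on 5 to 57 and 1 to 78 counts per library. With the replicate number as a block both passed (adjusted p = 0.00639 and 0.00996, edgeR). Rsad2 also passed without SIS ECM library 5 (adjusted p = 0.0381, edgeR), as did Ifi35 without SIS ECM library 3 or 4 (0.0368 and 0.0433) and Oasl1 without SIS ECM library 4 (0.0475). In MC38 their values were -0.19 ± 0.10 and -0.08 ± 0.12. Isg20 fell in MC38, from 7.61, 7.67, 7.06, 6.88 and 7.61 CPM to 5.55, 5.74, 4.51, 5.69 and 5.57 CPM, without overlap (log2 -0.43 ± 0.09, adjusted p = 0.0148, edgeR). In HT29 ISG20 was 14.5 to 18.9 CPM (median 16.2) in cells alone and 14.9 to 16.8 (median 15.6) with SIS ECM, the lowest fold change of that line (log2 -0.07 ± 0.06, adjusted p = 0.489, edgeR). In CT26 it was 0.43 ± 0.20 and did not pass.

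PARP9 works with the ubiquitin ligase DTX3L, and PARP10, PARP12 and PARP14 are enzymes that attach ADP-ribose to proteins. All 5 rose in HT29, between 0.35 and 0.47 (log2). In CT26 Parp14, Parp9 and Parp12 rose by 0.96 ± 0.23, 0.56 ± 0.09 and 0.44 ± 0.13, while Dtx3l (0.47 ± 0.20) and Parp10 (0.67 ± 0.24) did not pass. Parp12 lost its call in 10 of 12 omissions of 1 library (adjusted p from 0.0504 to 0.114, edgeR), all but those of cells alone 1 and SIS ECM 4. With the replicate block Dtx3l passed in CT26 (adjusted p = 0.00607, edgeR). In MC38 Parp14 rose, from 121, 107, 112, 119 and 112 CPM to 133, 132, 133, 141 and 149.8 CPM (log2 0.29 ± 0.06, adjusted p = 0.0134, edgeR), without overlap. Parp9 and Dtx3l, on opposite strands of chromosome 16, overlap each other in the annotation, and whether counting used the strand is not given in the sources.

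The remaining 8 genes have mixed roles: XAF1 counters a caspase inhibitor, SAMD9L restrains growth and translation, TRIM21 is a cytosolic antibody receptor, SP110 is a nuclear body protein, LGALS3BP is a secreted galectin-binding glycoprotein and RTP4 is a chaperone of membrane receptors; IFI35 and IFI44 are interferon-induced cytoplasmic proteins. In CT26 7 of the 8 rose, led by Rtp4 (1.45 ± 0.13), Xaf1 (1.42 ± 0.09), Ifi44 (1.42 ± 0.16) and Sp110 (1.11 ± 0.10). Trim21, Lgals3bp and Samd9l rose by 0.77 ± 0.12, 0.73 ± 0.21 and 0.41 ± 0.09, and Ifi35 did not pass (0.60 ± 0.18, adjusted p = 0.0522, edgeR; 0.0218 with the replicate block). Lgals3bp lost its call in 8 of 12 omissions of 1 library, with adjusted p up to 0.0883 (edgeR); the 4 that kept it left out cells alone 3 or SIS ECM 4, 5 or 6. In HT29 7 of the 8 rose, with SAMD9L at 0.70 ± 0.11, XAF1 at 0.70 ± 0.07, IFI44 at 0.57 ± 0.06, RTP4 at 0.51 ± 0.13, SP110 at 0.44 ± 0.07, TRIM21 at 0.23 ± 0.06 and IFI35 at 0.20 ± 0.06 (log2). IFI35 lost its call in 8 of 12 omissions of 1 library (adjusted p up to 0.103, edgeR), all but those of cells alone 1 or 5 and SIS ECM 2 or 6. HT29 LGALS3BP was 509 to 622 CPM (median 574) in cells alone and 605 to 682 (median 621) with SIS ECM and did not pass (log2 0.14 ± 0.05, adjusted p = 0.0911, edgeR). MC38 Rtp4 rose, from 24.5, 21.2, 25.5, 33.2 and 30.0 CPM to 38.5, 45.5, 34.4, 32.5 and 31.9 CPM (log2 0.46 ± 0.13, adjusted p = 0.0388, edgeR). Its cultures overlapped, and the call was lost in 6 of 10 omissions of 1 library (cells alone 1, 2 or 3, SIS ECM 1, 3 or 4; adjusted p up to 0.0990, edgeR). Sp110 had non-whole counts in all 22 mouse libraries and shares its locus with a gene on the opposite strand.

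Every SIS ECM library was above every library of cells alone for 17 of 33 genes in CT26 (3.87% of genes tested were), 23 of 32 in HT29 (3.64% of genes tested) and 3 of 33 in MC38, Oasl2, Parp14 and Trim21 (3.72% of genes tested). Every SIS ECM library was below for Ifit2 in CT26 (3.11% of genes tested), for Ifitm2 and Isg20 in MC38 (5.79% of genes tested) and for 0 genes in HT29 (2.74% of genes tested). MC38 Trim21 did not pass (log2 0.16 ± 0.07, adjusted p = 0.148, edgeR). Per kilobase of annotated exon, Ifitm3 and Ifitm2 had the highest levels of the group in both mouse lines and both cultures. In CT26 cells alone they were 75.5 ± 7.70 and 93.7 ± 7.21 CPM per kilobase (SD, n = 6), without overlap. With SIS ECM their order was the other way round, at 145 ± 24.4 and 109 ± 22.2 (SD, n = 6), with overlapping ranges. Samd9l (17.5 ± 0.716) and Bst2 (16.2 ± 2.70) followed in cells alone, also overlapping, and Mx1 was lowest at 0.114. In MC38 cells alone Ifitm3 (265 ± 33.9) and Ifitm2 (218 ± 13.2; SD, n = 5) overlapped, Ifit3 (69.7 ± 13.7) and Bst2 (67.4 ± 5.71) overlapped, and Ifitm1 was lowest at 0.737. Human exon lengths were not used here, so no order of levels is given for HT29.

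CT26 and MC38 spheroids without matrix held the group at different levels. In MC38 cells alone 29 of 33 genes were higher than in CT26 cells alone (41.3% of 14080 genes tested were higher) and 2 were lower (36.8% of genes tested were lower). The median log2 difference was 2.29, against 0.050 over all genes. The largest differences were Mx1 at 6.12 ± 0.17 (69.6-fold, adjusted p = 4.83e-20, edgeR), Rsad2 at 6.04 ± 0.24 (65.7-fold), Ifit3 at 5.55 ± 0.17 (46.7-fold), Cmpk2 at 5.20 ± 0.32 and Ifit1 at 4.12 ± 0.15. Ifitm1 and Isg20 were lower in MC38, at -1.93 ± 0.26 (adjusted p = 3.98e-07, edgeR) and -0.52 ± 0.17 (adjusted p = 0.00924, edgeR). Oasl1 (-0.02 ± 0.18) and Samd9l (0.27 ± 0.12) did not pass. For 26 of 33 genes the lowest MC38 library of cells alone was above the highest CT26 library with SIS ECM (32.1% of 14080 genes tested were); the exceptions were Ifi44, Ifitm1, Isg20, Mx2, Oasl1, Samd9l and Usp18. On a common mouse scale, with CT26 cells alone at 0, CT26 SIS ECM libraries reached 0.70 to 1.30, MC38 cells alone 2.20 to 2.47 and MC38 SIS ECM 2.39 to 2.50. The 2 lines also differed in the epithelial and fibroblast marker lists. Summed CPM in cells alone of CT26 and MC38 was 44.8 to 60.6 and 0.552 to 0.911 for epithelial markers. For fibroblast markers it was 520.2 to 792 and 3255 to 4168. Single markers went both ways. Of 5 fibroblast markers tested, 3 were higher in MC38, while Col1a1 and Col1a2 were lower (-1.62 ± 0.19 and -11.8 ± 0.24). Of 4 epithelial markers tested, Cdh1 was higher in MC38 (6.80 ± 0.95) and 3 were lower. The part of these lists in the difference was not tested.

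**Figure D4:**
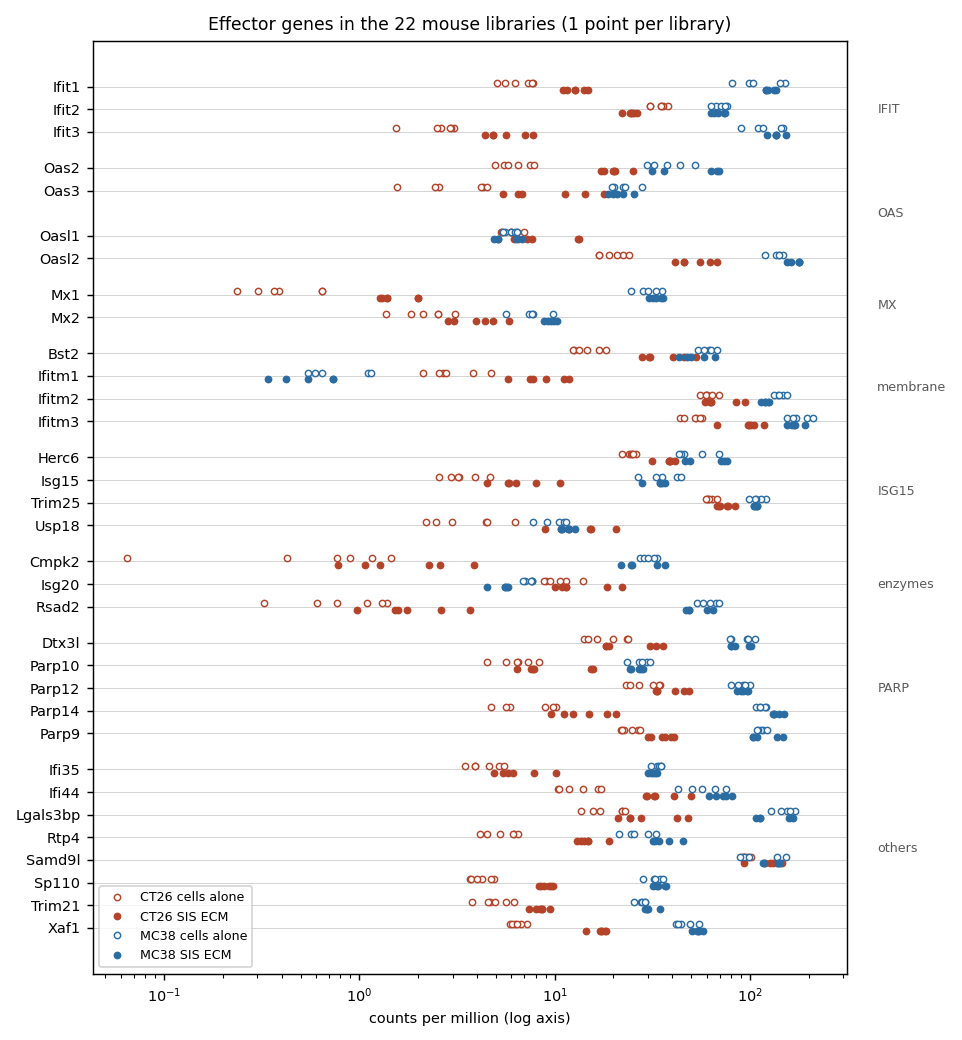
CPM (log axis) of the 33 effector genes in the 22 mouse libraries, 1 point per library, with CT26 in red and MC38 in blue, open for cells alone and filled for SIS ECM. For 26 of 33 genes all MC38 cells-alone points lie above all CT26 SIS ECM points, as for 32.1% of genes tested; Ifitm1 and Isg20 are lower in MC38.

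The response to SIS ECM differed between MC38 and CT26 when the difference itself was tested as an interaction over the 22 mouse libraries. It was lower in MC38 for 23 of 33 genes (5.40% of 14080 genes tested were lower) and higher for Ifit2 (2.87% of genes tested were higher). The median log2 difference was -0.93, against -0.027 over all genes. The smallest adjusted p-values (edgeR) belonged to Xaf1 (-1.19 ± 0.11, adjusted p = 2.83e-07), Sp110 (-1.03 ± 0.12, 5.15e-06), Bst2 (-1.58 ± 0.21, 4.55e-05) and Mx1 (-1.71 ± 0.25, 0.000116). Xaf1 in CT26 went from 5.90 to 7.22 CPM (median 6.35) to 14.5 to 18.3 CPM (median 17.4). In MC38 it was 44.5, 41.8, 42.8, 54.8 and 49.3 CPM in cells alone and 50.5, 53.7, 54.9, 57.6 and 54.3 CPM with SIS ECM. Sp110 in CT26 went from 3.67 to 4.88 (median 4.13) to 8.31 to 9.79 (median 9.08), without overlap. MC38 Sp110 was 34.7, 32.1, 35.9, 32.6 and 28.2 CPM in cells alone and 33.4, 33.7, 32.0, 37.0 and 36.6 CPM with SIS ECM. Bst2 in CT26 went from 12.4 to 18.4 (median 13.9) to 28.1 to 52.9 CPM (median 35.5). MC38 Bst2 was 61.6, 54.2, 62.9, 57.9 and 67.8 CPM in cells alone and 58.3, 66.1, 49.8, 43.1 and 47.7 CPM with SIS ECM. MC38 Mx1 was 28.4, 24.4, 30.1, 35.5 and 32.8 CPM in cells alone and 32.0, 35.7, 30.6, 35.1 and 33.1 CPM with SIS ECM. For these 4 genes the cultures were apart in CT26 and overlapped in MC38. With a replicate block Trim25 no longer passed (-0.26, adjusted p = 0.0595, edgeR) and Cmpk2, Mx2, Herc6, Parp14, Parp12 and Dtx3l did. That fit gave 28 lower (7.34% of genes tested were lower). With a term for the number ranges 31 were lower (13.8% of genes tested) and 1 was higher (12.7% of genes tested).

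Against CT26, the HT29 response was lower for 12 of 31 genes matched by symbol (6.49% of 12272 tested were lower) and higher for IFIT2 (4.28% of genes tested were higher; 0.83 ± 0.11, adjusted p = 2.23e-06, edgeR). The 12 ran from USP18 (-1.26 ± 0.23) and MX1 (-1.24 ± 0.25) to TRIM21 (-0.55 ± 0.11). IFITM1, IFITM3 and IFIT1 did not pass (-0.34 ± 0.21, -0.13 ± 0.14 and -0.17 ± 0.18). Against MC38, 10 of 31 were higher in HT29 (3.92% of genes tested were higher) and none lower (2.00% of genes tested were lower), by edgeR, DESeq2 and limma-voom, with 0 lower at an unadjusted p under 0.05. They ran from IFITM1 (1.69 ± 0.35, adjusted p = 0.00285, edgeR) and RSAD2 (0.94 ± 0.20) to IFIT2 (0.38 ± 0.11). These comparisons share the libraries of each line, so they do not stand apart from one another. Species and line cannot be told apart here. With a replicate block in the fit 16 genes were higher in HT29 than in MC38 (4.18% of genes tested were higher in that fit). Once the number range was a term 23 were higher (8.96% of genes tested were higher in that fit) and none lower by edgeR (6.38% of genes tested were lower).

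Libraries numbered 1 to 3 and 4 to 6 differed in the mouse lines in a fit over both cultures. In CT26 21 effector genes were lower in libraries 4 to 6 (26.3% of genes tested were lower) and Samd9l and Ifitm1 were higher (26.5% of genes tested were higher). The differences ran from Cmpk2 (-1.45) and Oas3 (-1.12) to Ifitm1 (0.61). In MC38 8 genes were higher in libraries 4 to 6 (19.9% of genes tested were higher), up to Oas2 at 0.78, and 6 lower (20.9% of genes tested were lower), down to Lgals3bp at -0.37. The mean of the group in MC38 cells alone was -0.18 to 0.025 in libraries 1 to 3 and 0.086 to 0.095 in libraries 4 to 6, and with SIS ECM it was 0.019 to 0.12 and 0.015 to 0.032. The MC38 ranges were thus apart in cells alone and overlapped with SIS ECM. In HT29 none passed in either direction by edgeR or limma-voom (0.00% of genes tested passed, either way, by both) or by DESeq2 (0.454% of genes tested were higher and 0.112% lower), with 4 genes lower at an unadjusted p under 0.05 by edgeR (LGALS3BP, HERC6, IFITM3 and IFITM1). The mitochondrial share moved with the numbers in CT26 (3.72 to 5.01 against 7.66 to 8.59%) and in MC38 (3.42 to 4.94 against 5.71 to 7.24%). Within libraries 1 to 3 it was also apart between cultures, at 4.82 to 5.01% in CT26 cells alone and 3.72 to 4.23% with SIS ECM, and at 3.42 to 3.75% in MC38 cells alone and 4.92 to 4.94% with SIS ECM. Within libraries 4 to 6 the cultures overlapped in both lines. The part of this share in the differences between ranges, and in the response within libraries 1 to 3, was not tested.

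The response was as large within either number range in CT26. Median log2 values were 0.97 in libraries 1 to 3 and 0.93 in libraries 4 to 6, with 27 and 28 of 33 genes higher (9.92 and 11.1% of genes tested), 25 of them in both, and Ifit2 lower in both (10.1 and 7.84% of genes tested were lower). No CT26 gene differed in response between the ranges by edgeR, DESeq2 or limma-voom (0.163% of genes tested were higher and 0.220% lower by edgeR, 1.89 and 0.913% by DESeq2), with 2 genes under an unadjusted 0.05 by edgeR. In MC38 13 of 33 genes rose (19.3% of genes tested) and 3 fell (20.4% of genes tested) in libraries 1 to 3. In MC38 libraries 4 to 6, 4 rose (8.65% of genes tested) and 10 fell (8.48% of genes tested). The response was lower in MC38 libraries 4 to 6 for 11 genes (11.5% of genes tested were lower) and higher for Oas2 (10.4% of genes tested were higher; 0.46 ± 0.13, adjusted p = 0.0116, edgeR). The 11 were led by Rtp4 (-0.75 ± 0.12, adjusted p = 0.000216, edgeR), Ifit1 (-0.66 ± 0.11) and Ifit3 (-0.58 ± 0.11). Ifit1 rose by 0.44 in libraries 1 to 3 and fell in libraries 4 to 6 (-0.21, adjusted p = 0.0177, edgeR). Oasl2 and Parp14 rose, and Isg20 and Ifitm2 fell, in both ranges. These MC38 ranges hold 3 against 2 libraries and 2 against 3. In HT29 the median was 0.36 in libraries 1 to 3 and 0.58 in libraries 4 to 6, with 21 and 24 of 32 genes higher (3.11 and 1.87% of genes tested). All 32 HT29 values were larger in libraries 4 to 6, as were 54.6% of all genes tested, but none differed in response by edgeR, DESeq2 or limma-voom (0.00% of genes tested passed, either way), with 1 gene, MX1, under an unadjusted 0.05.

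**Figure D5:**
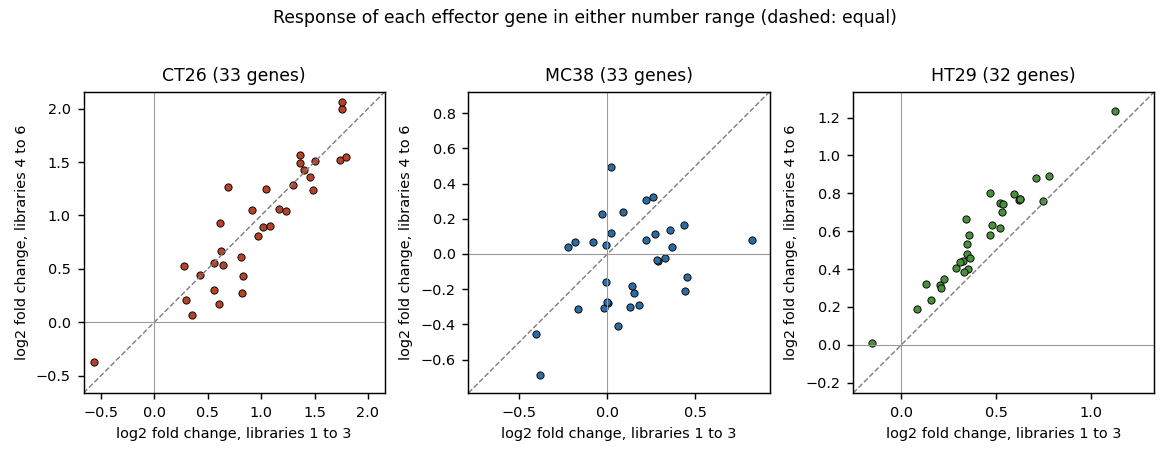
Log2 fold change of each effector gene with SIS ECM in libraries numbered 1 to 3 (x axis) and 4 to 6 (y axis), in CT26 (33 genes), MC38 (33) and HT29 (32); the dashed line marks equal values. CT26 points follow the line (medians 0.97 and 0.93), all 32 HT29 points lie above it, and MC38 points spread around 0 in libraries 4 to 6.

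The rest of the pathway was read from lists of ligands, receptors with their signalling factors, and nucleic acid sensors. None of the 9 listed interferon genes found in the mouse table reached 10 counts in any CT26 or MC38 library. Of these, 7 in CT26 and 6 in MC38 were at 0 throughout, and interferon genes outside the list were not read. Of 10 listed human genes, IFNE and IFNL1 reached 10 counts in an HT29 library, with at most 185 and 17, and IFNE did not pass (-0.002 ± 0.132). Of 16 signalling genes tested, 5 rose (6.15% of all genes tested rose) and none fell in CT26 by edgeR, led in adjusted p by Irf9 (0.82 ± 0.09), Irf7 (2.09 ± 0.37), Tyk2 (0.50 ± 0.10) and Stat2 (0.53 ± 0.15). In HT29 3 of 16 rose (7.75% of all genes), IRF7 (0.35 ± 0.06), IRF9 (0.22 ± 0.05) and IFNGR2 (0.13 ± 0.04). In MC38 1 of 16 rose (3.82% of all genes), Irf9 (0.30 ± 0.06), and 2 fell (5.36% of all genes), Irf1 and Ifngr1 (-0.30 ± 0.07 and -0.24 ± 0.07). Of 13 sensing genes, 4 rose in CT26 (6.15% of all genes). They were Zbp1 (1.67 ± 0.28), Dhx58 (1.49 ± 0.28), Ifih1 (0.87 ± 0.23) and Ddx58, which encodes RIG-I (0.76 ± 0.11). Zbp1 and Ddx58 also rose in MC38 (0.42 ± 0.05 and 0.23 ± 0.06), where 3.82% of all genes rose. In HT29 8 of 13 rose (7.75% of all genes), among them DDX58 (0.60 ± 0.07), IFIH1 (0.51 ± 0.07), EIF2AK2 (0.47 ± 0.06) and IKBKE (0.29 ± 0.06). Summed leukocyte markers in CT26 were 1.31 to 3.17 CPM (median 2.49) in cells alone and 1.96 to 10.9 CPM (median 6.06) with SIS ECM. Cd68 alone of the 9 was tested there (1.58 ± 0.51, adjusted p = 0.0666, edgeR), the other 8 stayed under 10 counts, and the part of such cells in the response was not tested. Summed epithelial markers in CT26 were 44.8 to 60.6 CPM in cells alone and 65.5 to 78.9 CPM with SIS ECM, without overlap. Of the 8, 3 were tested there and Krt18 rose (1.11 ± 0.20, adjusted p = 0.00252, edgeR). Krt20 (0.22 ± 0.09) and Cdx2, in the other direction (-0.70 ± 0.23, adjusted p = 0.0726, edgeR), did not pass, and Epcam and Cdh1 were at 0. Of 5 fibroblast markers tested in CT26 Dcn rose (0.65 ± 0.16, adjusted p = 0.0191, edgeR), and the summed list overlapped (520.2 to 792 and 449 to 683 CPM). In MC38 Col1a1 fell among 4 fibroblast markers tested (-3.23 ± 0.18), and in HT29 KRT20 and VIL1 fell among 8 epithelial markers (-0.28 ± 0.05 and -0.23 ± 0.05). The part of these markers in the responses was not tested. In MC38 the leukocyte sums were 1.03 to 1.62 and 1.02 to 1.90 CPM, and in HT29, where LYZ made up most of the sum, 1870 to 2036 and 1717 to 2086 CPM.

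Promoters of 25 of the 33 mouse genes were in the RefSeq table (29 windows of 300 bases), and 9 of the 25 held the ISRE core: Bst2, Ifit1, Ifit3, Ifitm2, Ifitm3, Isg15, Oas3, Rsad2 and Trim21. By window that is 31.0%, against 3.44% of the 32851 promoters in the table. The GAS core TTCNNNGAA, its own reverse complement, was in 17.2% of the 29 windows and 8.30% of all. In CT26 7 of the 9 genes with the ISRE core rose (median log2 1.01), and 10 of the 16 without it rose and 1 fell (median 0.62). Over all genes tested in CT26, 6.15% rose and 3.10% fell. In MC38 none of the 9 rose and Ifitm2 fell, by edgeR (median -0.065). Of the 16 without the core 1 rose and 1 fell in MC38 (median -0.014). Over all genes tested in MC38, 3.82% rose and 5.36% fell. The count of letters is a description and was not tested.

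In the authors' deposited table, 25 of the 33 genes were higher and 1 lower in CT26, 31 of 32 higher in HT29 and 2 of 33 higher in MC38, at its adjusted p under 0.05. The share of all its genes that passed is not given here, so these counts have no background beside them. The calls from the authors' deposited table matched those given here for 32, 31 and 28 genes, and no gene had the opposite sign. In MC38 most of those matches are genes that passed in neither. Of the 5 MC38 changes given here, Rtp4 alone passed in the authors' deposited table (adjusted p = 0.0127). In the authors' deposited table the adjusted p was 0.0667 for Oasl2, 0.166 for Parp14, 0.215 for Isg20 and 0.108 for Ifitm2, and Xaf1, which did not pass here, was at 0.0341. All 25 CT26 and all 30 HT29 changes given here passed in the authors' deposited table too.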

How the data were processed

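The authors deposited estimated counts per gene for each of the 34 libraries (10 spheroids per tube, stranded mRNA libraries, paired-end reads), and the unit was read from the table itself. The submitters' processing notes name cutadapt 1.18, STAR 2.7.0f, RSEM 1.3.1, limma and the builds mm10 and hg38, with no role or strand setting given in the sources used here. From the authors' deposited table of comparisons, the log2 fold changes and adjusted p-values were copied, and its 34 per-sample columns were not used. Counts were rounded, genes were kept with filterByExpr (minimum count 10), and each line was fitted with edgeR 4.0.16 (TMM, quasi-likelihood test, R 4.3.3) with Benjamini-Hochberg adjustment over all genes tested. Alternatives were DESeq2 1.42.0, limma-voom (limma 3.58.1), no filter, a replicate block, a term for the number ranges, each number range alone, and each library left out in turn. The comparison of responses between number ranges was added after seeing the data. Interactions between lines used the 22 mouse libraries, or the 16667 genes matched by symbol. Log2 CPM used a prior count of 2. The fit of SIS ECM against cells alone in CT26 was tested on simulated counts with edgeR, DESeq2 and limma-voom. Those counts held no difference between number ranges, and the other fits were not tested in this way.

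Group members and pathway lists were chosen with earlier results of these data known. Libraries with the same number in both cultures deviated together in CT26 (r from 0.222 to 0.484 over 6 pairs) and MC38 (0.188 to 0.321 over 4 pairs). Libraries with other numbers of the same range did so no less (0.196 to 0.582 and 0.202 to 0.313). Mean r was 0.350 for the same number and 0.419 for other numbers of the range in CT26, and 0.251 and 0.262 in MC38. Between ranges it was -0.395 in CT26 and -0.244 in MC38. The deviations thus followed the number range, and a pairing by single number was not shown. Values of every library, or the lowest, median and highest in groups of 6, were given for the 4 genes with the highest and the 2 with the lowest fold change in each line, the 4 with the smallest adjusted p of the MC38 against CT26 interaction, and genes that changed in opposite directions in 2 lines, and the others were summarised by role. Of the pathway lists, up to 4 called genes per list and line were named. A gene of the signalling list is not reported here. No replicate pair matched within sampling noise (chi-square per degree of freedom 1.92 to 148 over 80 pairs).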

Additional observations from a re-analysis of the deposited data

Results flagged for a closer look

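In 11 of 202 groups of libraries tested, 1 library lay farther from the others than Dixon's 95% limit, which is 5.45% of the groups, and chance flags about 1 in 20. In CT26 with SIS ECM these were Herc6 in library 2 (log2 CPM 4.99), Ifitm3 in library 3 (6.09), Rtp4 in library 1 (4.25) and Xaf1 in library 4 (3.87), and in CT26 cells alone Ifit3 in library 5 (0.72). In MC38 with SIS ECM they were Isg15 in library 1 (4.81), Isg20 in library 4 (2.20), Trim21 in library 3 (5.11) and the mean of the group in library 3 (0.12). In HT29 they were LGALS3BP with SIS ECM in library 1 (9.41) and PARP10 in cells alone in library 5 (5.66).

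The response to SIS ECM differed between lines by the interaction test of edgeR, in log2 units. For MC38 against CT26 the differences were Ifitm1 at -2.03, Oas3 at -1.74, Mx1 at -1.71, Usp18 at -1.64, Bst2 at -1.58, Rsad2 at -1.31, Oas2 at -1.22, Xaf1 at -1.19, Ifi44 at -1.11, Isg15 at -1.11 and Oasl2 at -1.10. Further ones were Sp110 at -1.03, Ifitm3 at -1.02, Rtp4 at -1.0, Ifit3 at -0.98, Lgals3bp at -0.93, Isg20 at -0.87, Ifit1 at -0.82, Ifi35 at -0.69, Trim21 at -0.62, Parp9 at -0.47, Ifitm2 at -0.46 and Trim25 at -0.28, with Ifit2 at 0.45 in the other direction. For HT29 against CT26 they were USP18 at -1.26, MX1 at -1.24, OAS3 at -1.06, BST2 at -1.02, OAS2 at -1.0, RTP4 at -0.96, IFI44 at -0.86, XAF1 at -0.74, SP110 at -0.69, IFIT3 at -0.62, LGALS3BP at -0.62 and TRIM21 at -0.55, with IFIT2 at 0.83 in the other direction. For HT29 against MC38 they were IFIT2 at 0.38, XAF1 at 0.46, MX1 at 0.48, IFITM2 at 0.48, BST2 at 0.56, ISG15 at 0.60, IFIT1 at 0.64, IFITM3 at 0.90, RSAD2 at 0.94 and IFITM1 at 1.69.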

How the results depend on the processing

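The CT26, HT29 and MC38 against CT26 counts stayed within 1.5 times the reported counts under DESeq2, limma-voom, no filter, the replicate block and a term for the number ranges. In MC38 7 genes rose with a term for the number ranges (12.2% of genes tested) and 13 in libraries 1 to 3 alone (19.3%). Without the filter 1 MC38 gene fell (2.48% of genes tested), and 10 fell in libraries 4 to 6 alone (8.48%). MC38 Ifit1 turned to -0.21 in libraries 4 to 6 alone. The HT29 median was 0.36 in libraries 1 to 3 alone. Genes with a higher response in HT29 than in MC38 numbered 16 with the replicate block and 23 once the number range was a term (4.18 and 8.96% of genes tested). Between the number ranges, 1 CT26 gene was higher by DESeq2 (25.4% of genes tested were higher). Without the filter 2 HT29 genes were lower between the ranges (0.769% of genes tested were lower). The cause of these shifts was not tested. The replicate block gave 29 higher in CT26 (10.6% of genes tested were higher in that fit). In MC38 it gave 3 higher and 2 lower (3.79 and 5.21% of genes tested). It gave 28 lower for MC38 against CT26 (7.34% of genes tested) and 15 lower for HT29 against CT26 (9.49% of genes tested). In HT29 libraries with the same number did not deviate together (r from -0.0956 to 0.0646). The block there again gave 30 higher (7.29% of genes tested).

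Leaving out 1 library at a time gave 21 to 26 higher in CT26 with 1 lower (median 0.84 to 1.02), 29 to 30 higher in HT29 (median 0.45 to 0.53), and 2 to 6 higher and 1 to 2 lower in MC38 (median 0.01 to 0.08). It gave 17 to 25 lower and 1 higher for MC38 against CT26, 29 to 30 higher and 2 lower between their cells alone, 10 to 16 lower and 1 higher for HT29 against CT26, and 7 to 13 higher for HT29 against MC38. Between number ranges it gave 1 to 2 higher and 18 to 22 lower in CT26, 7 to 11 higher and 4 to 6 lower in MC38, and 0 in HT29. The shares of all genes that passed with 1 library left out are not given here, so these counts have no background beside them. With every library kept, 26.5% of genes tested were higher between number ranges and 26.3% lower in CT26. In MC38 the shares were 19.9 and 20.9%. Depth limits Mx1, Cmpk2 and Rsad2 in CT26 and Ifitm1 in MC38, with as few as 4, 1, 5 and 7 counts in a library.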
